A study of Homo sapiens with 15 samples.

Results

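Daily exposure of bronchial epithelial cells to a low amount of PM2.5, fine particles of outdoor air, was compared with medium alone over 7 days by RNA sequencing. The comparison used 6 of the 15 libraries of the study, 3 of cells that received PM2.5 daily at 1 µg/cm2 and 3 of control cells, and covered the 16506 of 58219 genes that passed a filter on low counts. All libraries came from BEAS-2B, an immortalized line of human bronchial epithelial cells, grown as a submerged layer on collagen-coated plastic in serum-free bronchial epithelial growth medium. Control cells received this medium without particles. Both groups were washed once a day between additions, and the methods give 6 additions with collection on day 7 where the sample labels give 7 days of treatment. The particles had been collected on filters in Beijing in winter and brought into water by sonication. Each group held 1 library from each of experiments 1, 2 and 3, which were run separately, and the remaining 9 libraries belonged to a 24-h protocol with 0, 1 or 30 µg/cm2 given once. The replicates are separate experiments on 1 immortalized line in submerged culture and not separate donors.

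Urban PM2.5 carries polycyclic aromatic hydrocarbons, which bind the aryl hydrocarbon receptor (AhR). The bound receptor pairs with ARNT in the nucleus and switches on a small set of genes, among them the hydrocarbon-oxidizing enzymes *CYP1A1* and *CYP1B1* and the feedback inhibitors *AHRR* and *TIPARP*. A separate sensor, MondoA with its partner MLX, follows glucose phosphate in the cell and drives *TXNIP* and *ARRDC4*, arrestin-like proteins that restrain glucose uptake. BEAS-2B cells resemble basal cells of the airway, the stem-like layer that is marked by TP63 and keratins 5 and 15 and is held to the basement membrane by hemidesmosomes. Stressed or injured airway epithelium can turn to squamous differentiation, in which small proline-rich (SPRR) proteins and involucrin are built into a cross-linked envelope.

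Promoter sequence is shown for the genes at the head of the AhR and MondoA groups because both sensors bind short, well-defined DNA words. The sequences are from RefSeq (GRCh38.p14), in a window from 250 bases before to 50 bases after the annotated start, and are written 5′ to 3′ on the strand of the gene. Capitals mark the letters searched on both strands, which were GCGTG for the AhR core (CACGC where it lies on the other strand) and, for the paired carbohydrate response element, CACGNG followed after 5 bases by a further CACGNG.
*CYP1A1*, chr15:74725569-74725597, minus strand: ccagggaaggagGCGTGgccacacgtaca
*AHRR*, chr5:321672-321700, plus strand: ggcgggcggctcGCGTGccggggtggggc
*TIPARP*, chr3:156674370-156674398, plus strand: cgcgagaaaggaCACGCcccctcgcggga
*TIPARP*, chr3:156674436-156674464, plus strand: cgaacgaacgcgCACGCgcgcgcaggggg
*TXNIP*, chr1:145996645-145996673, minus strand: gatgtgCACGAGGGCAGCACGAGcctccg
The AhR core was present in 50.2% of the 11647 promoters that matched a tested gene, in 43.0% of the 291 of genes called higher and in 42.0% of the 414 of genes called lower. The paired element was present in 17 promoters (0.146%), and 2 of these genes were called higher after daily exposure, *TXNIP* and the ribonuclease gene *PNLDC1*, and 0 lower. The window of *ARRDC4* did not hold these letters. *CYP1B1* and *ALDH3A1* had no entry among the promoters and were not searched. The RefSeq start used for *AHRR* lies inside the gene span in the count data, which begins at 304176.

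Between 25275152 and 31616081 reads were counted on genes in the 6 libraries. A floor of 3 counts in a library equalled 0.0949 to 0.119 CPM, counts scaled to the size of the library, which covers counting error only, and mitochondrial genes took 2.37% to 2.90% of the counts. The treated library of experiment 3 stood apart. Its chi-square per degree of freedom against the other treated libraries was 25.8 and 20.1, where all other pairs of replicates gave 4.33 to 5.13. On a principal component analysis the first component, with 48.1% of the variance, separated treated from control libraries, and the second, with 22.6%, separated this library from the rest. The log2 fold-change without experiment 3 is therefore given for several genes that were not called without it. Epithelial markers were present in all 6 libraries (8 of 8 markers, with a summed level, before TMM scaling, of 2420 to 2890 CPM in controls and 1550 to 1680 CPM in treated cells), while the 5 markers of secretory cells were at the floor throughout, *SCGB1A1* at 0 counts. Fibroblast markers were detected at a summed 106 to 149 CPM in controls and 90.8 to 110 CPM in treated cells. The summed levels of ciliated (0.752 to 1.67 CPM) and endothelial (0.569 to 1.98 CPM) markers were low. The sum for immune markers, 7.74 to 12.8 CPM, was mostly *CD14*, and *PTPRC*, *LYZ* and *MS4A1* were at 0 counts. The part of other cells or of fewer cells of a kind in any result was not tested, since fewer cells of a kind and less RNA in each cannot be told apart in bulk RNA.

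After daily PM2.5, 1181 genes were called (7.15% of those tested), 517 of them higher (3.13%) and 664 lower (4.02%) than in the controls of the same experiments. A call required both an adjusted p below 0.05 and a log2 fold-change of 0.6 or more in either direction. The adjusted p alone was met by 6045 genes (36.6%). The fit was edgeR's quasi-likelihood test with the experiment as a replicate block, and p-values carry the Benjamini-Hochberg adjustment over all tested genes. Among the 1181 called genes, 1171 changed in the same direction in all 3 experiments, as 63.4% of all tested genes did, and the median absolute log2 fold-change was 0.85. Treated and control libraries did not overlap in 1087 of the called genes and in 44.9% of all tested genes, so a lack of overlap is common here. A log2 fold-change of at least 1 was seen in 188 of the higher and 214 of the lower genes. The median over all tested genes was 0.01. Without experiment 3 the count was 570 higher and 753 lower, and 895 of the 1181 genes were called again. In that smaller fit the spread of a gene rests mostly on values shared across genes. The edgeR adjusted p of *KRT5*, for example, was 2.39e-30 there and 1.40e-05 in the main fit. A call without experiment 3 is therefore mainly a cut on fold-change and a weak check. SEs below are of log2 fold-changes, CPM are scaled by the trimmed mean of M-values (TMM), and values of libraries are given in the order of experiments 1, 2 and 3.

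Most tested AhR genes rose. Of 8 tested members of the list, 5 were higher (*CYP1A1*, *CYP1B1*, *AHRR*, *TIPARP* and *ALDH3A1*), none was lower, and the median log2 fold-change was 0.90. *CYP1A1* (ENSG00000140465.13, chromosome 15 from 74719542 to 74725610), which oxidizes polycyclic hydrocarbons, was at 3.06, 2.97 and 0.998 CPM in the controls and 34.3, 32.6 and 34.4 CPM after PM2.5. The treated libraries were level with one another and lay far above every control, with means of 33.8 ± 1.04 and 2.34 ± 1.16 CPM (SD, n = 3; log2 fold-change 3.89, SE 0.22, edgeR adjusted p = 2.66e-05). *CYP1B1* (ENSG00000138061.11, chromosome 2 from 38066973 to 38109902), the related enzyme, went from 83.5, 91.1 and 78.98 CPM to 222, 217 and 261 CPM (log2 fold-change 1.46, SE 0.08, edgeR adjusted p = 2.17e-05). Here too the groups did not overlap, and the base level was higher than that of *CYP1A1* in every library. The receptor's repressor *AHRR* (ENSG00000063438.16, chromosome 5 from 304176 to 438291) went from 6.92, 7.24 and 4.23 CPM to 14.8, 15.96 and 17.1 CPM (log2 fold-change 1.40, SE 0.17, edgeR adjusted p = 3.91e-04), with no overlap. *TIPARP*, an ADP-ribosyltransferase that switches the receptor off, was at 36.5, 35.98 and 39.8 CPM and then 71.7, 72.7 and 78.6 CPM (log2 fold-change 0.99, SE 0.05, edgeR adjusted p = 2.17e-05), with a similar ratio in each experiment. *ALDH3A1*, an aldehyde dehydrogenase, went from 2.65, 2.48 and 2.40 CPM to 4.94, 4.72 and 3.68 CPM (log2 fold-change 0.82, SE 0.15, edgeR adjusted p = 0.00360), and experiment 3 was the lowest of the treated libraries. The receptor itself, *AHR*, had a log2 fold-change of 0.30, its partner *ARNT* -0.22 and the shared target *NQO1* 0.14, below the size threshold, while *CYP1A2* and *UGT1A6* were too low to test. All 5 calls were also made without experiment 3. The counting strand is not given in the sources used here, so values of *CYP1B1*, which overlaps *CYP1B1-AS1* and *RMDN2*, and of *TIPARP*, which overlaps *TIPARP-AS1*, may hold reads of their antisense neighbours. The reads of *AHRR* may be shared whatever the strand setting, since *PDCD6*, which overlaps it, has the same orientation.

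Of the 8 genes of the MondoA list, 2 rose and 6 did not pass, and without experiment 3 the arrestin gene *ARRDC3* was also called, with a lower value. *TXNIP* (ENSG00000265972.5, chromosome 1 from 145992435 to 145996600), the thioredoxin-binding arrestin that promotes removal of glucose transporters, was at 27.1, 26.6 and 14.8 CPM in controls and 127, 122 and 380.3 CPM in treated cells. Every treated library was above every control, and experiment 3 held both the highest treated library and the lowest control (log2 fold-change 2.99, SE 0.40, edgeR adjusted p = 7.00e-04). Its paralog *ARRDC4* (ENSG00000140450.8, chromosome 15 from 97960698 to 97973838) moved in parallel, from 5.39, 5.80 and 4.66 CPM to 14.9, 16.02 and 37.9 CPM (log2 fold-change 2.02, SE 0.26, edgeR adjusted p = 5.59e-04), again highest in experiment 3. Without experiment 3 both remained called, at log2 fold-changes of 2.20 and 1.46, while in edgeR's robust mode *TXNIP* was not called. The sensor genes did not pass, with log2 fold-changes of -0.13 for *MLXIP* (MondoA), -0.33 for *MLX* and 0.20 for *MLXIPL*, nor did the arrestin genes *ARRDC3* (-0.49) and *ARRDC2* (-0.14) or thioredoxin, *TXN* (0.33).

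**Figure D1:**
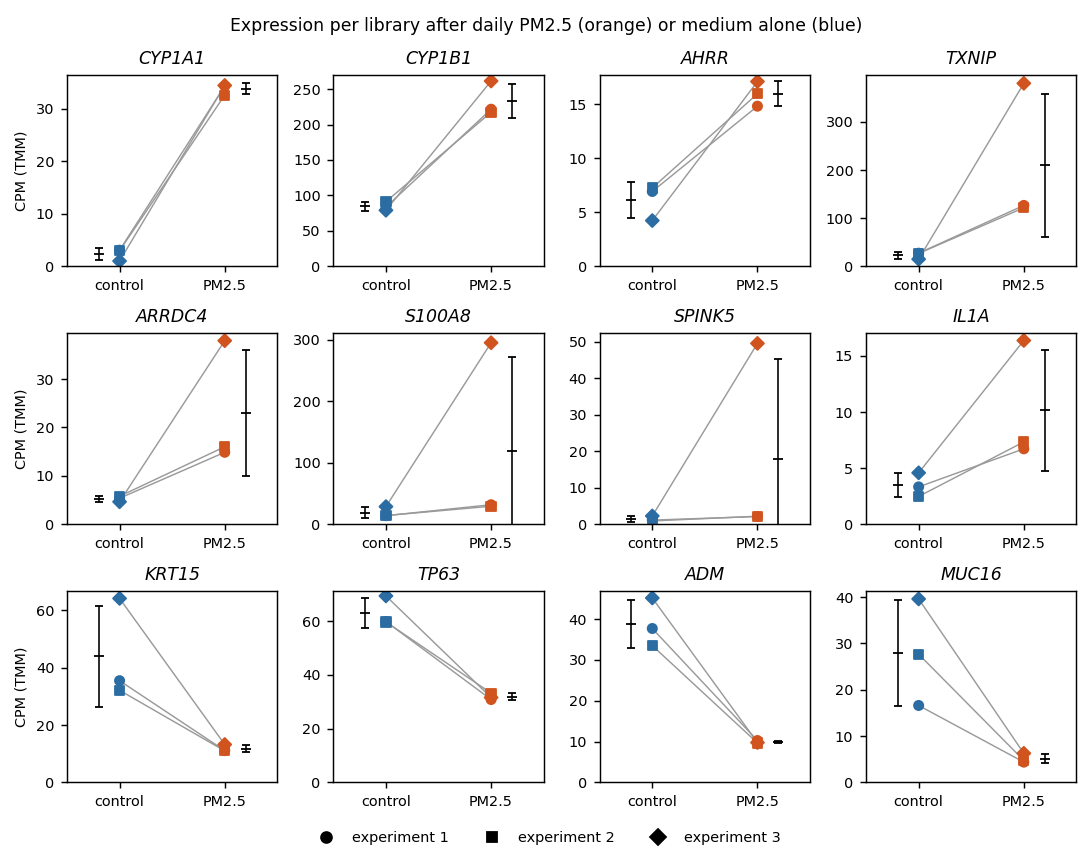
Expression of 12 genes in each of the 6 libraries, in TMM-normalized CPM on a linear axis from 0. Lines join the control and the treated library of one experiment, and the bars beside the points are the mean and SD of 3 libraries (cut at 0). The treated libraries of CYP1A1 sit at 32.6 to 34.4 CPM in all experiments, whereas S100A8 and SPINK5 were far higher in treated experiment 3 than in treated experiments 1 and 2.

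Genes of the squamous program and the calgranulins were among the largest rises, and most of their size came from experiment 3. The 12 largest rises under the naming rule held 3 SPRR genes, 2 S100 genes and 4 protease inhibitors of surface epithelia, so whole gene families were then listed, a choice made after their values were seen. Of 11 SPRR genes, 6 could be tested and all 6 were higher (*SPRR1A*, *SPRR1B*, *SPRR2A*, *SPRR2D*, *SPRR2E* and *SPRR3*), with a median log2 fold-change of 2.69 that was 1.08 without experiment 3, where 5 were called. Without the replicate block 3 of the 6 were called, and with DESeq2 1. For *SPRR2A*, *SPRR2D* and *SPRR2E* the controls alone did not pass the low-count filter, so the treated libraries decided that they were tested. That all 6 were higher is therefore in part set by the filter. The same holds for *S100A7*, *S100A12*, *WFDC12* and *SPINK7* below. *SPRR2A* was at 0.322, 0.379 and 0.0998 CPM in controls and 1.14, 0.926 and 7.59 CPM after PM2.5 (log2 fold-change 3.32, SE 0.67, edgeR adjusted p = 0.00492), and *SPRR3* at 1.37, 1.07 and 2.99 CPM and 2.52, 1.98 and 25.6 CPM (log2 fold-change 2.08, SE 0.40, edgeR adjusted p = 0.00380). In both, the treated library of experiment 3 was several times higher than any other, and the control of experiment 3 exceeded the treated libraries of experiments 1 and 2 for *SPRR3* but not for *SPRR2A*. SPRR2 genes are close copies of one another, so reads may have been shared between them. Of 16 S100A genes, 14 were tested, with 4 higher and 1 lower. The calgranulin *S100A8*, a calcium-binding protein of inflamed epithelium, was at 14.2, 14.3 and 28.8 CPM and 31.9, 29.5 and 295 CPM (log2 fold-change 2.01, SE 0.39, edgeR adjusted p = 0.00396), and its partner *S100A9* at 29.2, 28.9 and 56.5 CPM and 66.2, 64.6 and 386 CPM (log2 fold-change 1.76, SE 0.27, edgeR adjusted p = 0.00127). *S100A7* and *S100A12* had log2 fold-changes of 2.82 and 2.92, the last without a call when experiment 3 was left out. The protease inhibitors *PI3* (elafin), at 1.25, 1.66 and 2.46 CPM and 5.49, 4.88 and 53.3 CPM, and *SPINK5*, at 1.17, 0.931 and 2.30 CPM and 2.14, 2.22 and 49.6 CPM, had log2 fold-changes of 3.17 (SE 0.45) and 3.12 (SE 0.57). For both, every treated library was above the control of its experiment, and that of experiment 3 was far above the rest. *WFDC12* and *SPINK7*, of the same inhibitor families, had log2 fold-changes of 3.16 and 2.36, and *SPINK7* was not called without experiment 3 (0.39). Of 13 SERPINB genes, 10 were tested and 2 were higher, *SERPINB2* (1.83) and *SERPINB3* (1.03), neither of which was called without experiment 3.

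Keratins split. Of 55 keratin genes, 21 were tested, with 5 higher (*KRT4*, *KRT6B*, *KRT6C*, *KRT10* and *KRT16*) and 3 lower (*KRT5*, *KRT15* and *KRT19*). Without experiment 3, 1 keratin was higher and 4 were lower, and without the replicate block or with DESeq2 the counts were 1 and 3. *KRT16*, a keratin of activated and squamous epithelium, was at 42.2, 40.98 and 85.6 CPM in controls and 49.6, 48.7 and 273 CPM after PM2.5. The control of experiment 3 was already above the treated cells of experiments 1 and 2, and the groups overlapped (log2 fold-change 0.76, SE 0.24, edgeR adjusted p = 0.0331). *KRT6B* showed the same form, at 2.25, 1.90 and 3.86 CPM and 3.07, 3.09 and 25.7 CPM (log2 fold-change 1.60, SE 0.39, edgeR adjusted p = 0.0109), and reads of the close copies *KRT6A*, *KRT6B* and *KRT6C* may be shared. *KRT14* was not called (log2 fold-change 0.11, SE 0.33) and went from 6.07, 5.76 and 7.99 CPM to 4.07, 3.39 and 18.7 CPM, lower in experiments 1 and 2 and higher in experiment 3. Over all genes at a mean of 1 CPM or more, 41 of the 384 called higher, and 12 of the 531 called lower, had a change in experiment 3 that went further in the called direction than the mean of experiments 1 and 2 by at least 1 on the log2 scale.

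**Figure D2:**
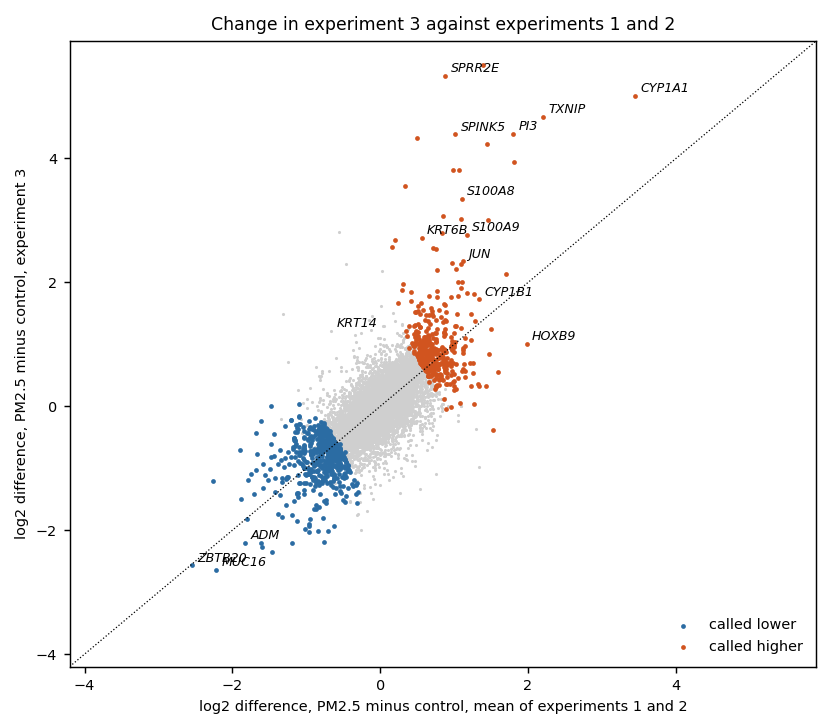
Log2 difference between treated and control library in experiment 3 (vertical axis) against the mean difference of experiments 1 and 2 (horizontal axis), for the 13957 genes at a mean of 1 CPM or more. Orange and blue points are genes called higher and lower, and the dotted line marks equal change. SPRR2E, SPINK5, PI3, TXNIP and S100A8 lie far above the line.

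Part of the cytokine list rose. Of 24 tested members of the cytokine and NF-kappaB list, 10 were higher and 0 lower, with a median log2 fold-change of 0.32. The 10 were *IL6*, *IL1A*, *IL1B*, *CXCL1*, *CXCL2*, *CXCL3*, *CXCL8*, *IL24*, *TSLP* and the prostaglandin synthase *PTGS2*, all at means below 6 CPM in controls. For *PTGS2* the controls alone did not pass the low-count filter, so the treated libraries decided that it was tested. The direction of *PTGS2* is therefore in part set by the filter. The epithelial alarmin *IL1A* went from 3.34, 2.48 and 4.59 CPM to 6.73, 7.34 and 16.4 CPM (log2 fold-change 1.51, SE 0.16, edgeR adjusted p = 2.68e-04), with no overlap and the highest level in experiment 3. *TSLP*, a cytokine that primes dendritic cells, went from 4.66, 4.80 and 4.29 CPM to 7.87, 7.53 and 8.09 CPM (log2 fold-change 0.77, SE 0.12, edgeR adjusted p = 0.00144), nearly the same in each experiment. *IL6* was at 0.523, 0.448 and 0.499 CPM and 1.35, 0.895 and 1.30 CPM (log2 fold-change 1.25, SE 0.28, edgeR adjusted p = 0.00793), so its base level lay at 13 to 15 counts per library. The neutrophil chemokines *CXCL8*, at 3.90, 3.21 and 2.13 CPM and 5.31, 5.31 and 6.39 CPM, and *CXCL3*, at 0.885, 0.862 and 0.865 CPM and 1.35, 1.57 and 2.64 CPM, had log2 fold-changes of 0.90 (SE 0.21) and 1.07 (SE 0.26). The NF-kappaB feedback genes of the same list were not called, with log2 fold-changes of -0.56 for *NFKBIA* and -0.43 for *TNFAIP3*, and *CCL20* and *ICAM1* were at 0.29 and -0.10. Fewer calls were made without experiment 3 (5 higher and 1 lower), without the replicate block (7 and 0) and with DESeq2 (6 and 0).

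The ATF4 list, of amino acid stress, and the list of MAPK feedback and immediate early genes held 6 rises each. In the ATF4 list, 6 of 24 were higher and none lower, with a median of 0.35, and 3 were called without experiment 3, where *CHAC1*, *PSAT1* and *STC2* stood at 0.50, 0.56 and 0.45. The pseudokinase *TRIB3* went from 497, 462 and 438 CPM to 824, 797 and 932 CPM (log2 fold-change 0.87, SE 0.07, edgeR adjusted p = 7.81e-05) and the stress factor *ATF3* from 18.7, 19.1 and 22.5 CPM to 35.1, 30.5 and 65.9 CPM (log2 fold-change 1.06, SE 0.14, edgeR adjusted p = 5.96e-04), each without overlap. *PSAT1* of serine synthesis, *CTH* of cysteine synthesis, *CHAC1*, which breaks down glutathione, and *STC2* had log2 fold-changes of 0.67, 0.72, 0.78 and 0.64, whereas *ATF4*, *DDIT3* and *ASNS* stood at -0.00326, -0.36 and 0.35. Of 31 genes of MAPK feedback and immediate early response, 6 were higher and 1 lower. *JUN*, an AP-1 subunit, was at 31.4, 26.3 and 27.1 CPM and 65.4, 59.6 and 138 CPM (log2 fold-change 1.54, SE 0.20, edgeR adjusted p = 6.28e-04), highest in treated experiment 3, and *JUND* at 48.8, 39.5 and 40.3 CPM and 90.9, 70.98 and 96.2 CPM (log2 fold-change 1.00, SE 0.08, edgeR adjusted p = 8.36e-05). *DUSP8*, *ETV5*, *EGR1* and *IER2* had log2 fold-changes of 1.92, 0.72, 0.67 and 0.66, and *EGR1* was not called without experiment 3 (0.55). The controls of *DUSP8* alone did not pass the low-count filter, so its direction is in part set by the filter. The phosphatase *DUSP10*, which dampens JNK and p38, fell from 12.9, 10.8 and 14.2 CPM to 5.94, 4.97 and 5.08 CPM (log2 fold-change -1.24, SE 0.12, edgeR adjusted p = 1.59e-04).

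In the TNF receptor list, 2 of 16 were higher and 2 lower. *TNFRSF12A*, the receptor of TWEAK, rose from 79.7, 75.7 and 73.2 CPM to 152, 135 and 210.3 CPM (log2 fold-change 1.10, SE 0.11, edgeR adjusted p = 2.15e-04), and *TNFSF15* had a log2 fold-change of 0.93. The nerve growth factor receptor *NGFR* and the death ligand *TNFSF10* were lower, at -0.81 and -0.64, and without experiment 3 they stood just short of a call at -0.54 and -0.60. Of 39 HOX genes, 12 passed the filter and 1 was called. *HOXB9* (ENSG00000170689.9, chromosome 17 from 48621159 to 48626356), a position-specifying homeobox factor, was at 0.724, 0.586 and 0.832 CPM and 2.80, 2.75 and 1.74 CPM (log2 fold-change 1.73, SE 0.27, edgeR adjusted p = 0.00133), higher in every treated library and lowest of the treated in experiment 3.

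Basal-cell genes fell in part. Of 19 tested genes of the basal list, 9 were lower and 2, the squamous keratins *KRT6B* and *KRT16*, were higher, with a median log2 fold-change of -0.58, and without experiment 3 the counts were 10 lower and 0 higher. *TP63* (ENSG00000073282.12, chromosome 3 from 189631416 to 189897279), the transcription factor that maintains basal identity, went from 59.9, 59.7 and 69.4 CPM to 30.9, 33.2 and 31.6 CPM (log2 fold-change -0.98, SE 0.07, edgeR adjusted p = 4.52e-05). *KRT5* (ENSG00000186081.11, chromosome 12 from 52514575 to 52520687), the main basal keratin, went from 917, 871 and 1137 CPM to 495, 449 and 601 CPM (log2 fold-change -0.92, SE 0.04, edgeR adjusted p = 1.40e-05). Every treated library lay below every control for both genes. *KRT15* (ENSG00000171346.15, chromosome 17 from 41513743 to 41522529), a keratin of resting basal cells, went from 35.5, 32.2 and 64.2 CPM to 11.1, 11.02 and 13.2 CPM (log2 fold-change -1.85, SE 0.13, edgeR adjusted p = 4.52e-05), the largest fall of the list, and its control was highest in experiment 3. *S100A2*, a calcium-binding protein of basal cells, fell from 238, 233 and 291 CPM to 127, 125 and 154 CPM (log2 fold-change -0.91, SE 0.04, edgeR adjusted p = 1.47e-05). The laminin chain *LAMA3*, the desmosomal cadherin *DSG3* and the plakin *DST*, which ties keratin to hemidesmosomes, had log2 fold-changes of -0.77, -0.65 and -0.99. *NGFR* was also lower (-0.81), and neither squamous keratin was called without the replicate block or with DESeq2. Among 6 simple epithelial keratins, 1 was lower, *KRT19*, at 729, 671 and 826 CPM in controls and 415, 384 and 309.8 CPM in treated cells (log2 fold-change -1.01, SE 0.10, edgeR adjusted p = 2.31e-04). Of 20 genes of epithelial or mesenchymal state, 3 were lower, *CDH1* (-0.60), *SNAI2* (-0.65) and *FN1* (-0.80), and 0 higher. Without experiment 3 the counts of this list were 2 lower and 1 higher, and *CDH1* was not called (-0.43). With a trend in exon length removed, as described with the length classes, 1 was lower and 0 higher.

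Some matrix and adhesion genes fell. Of 44 collagen genes, 31 were tested and 7 were lower (*COL2A1*, *COL4A4*, *COL5A1*, *COL12A1*, *COL15A1*, *COL18A1* and *COL25A1*), with none higher and a median of -0.39. The treated libraries of *COL2A1* alone did not pass the low-count filter, so the controls decided that it was tested. The network-forming *COL4A4* went from 147, 151 and 162 CPM to 80.5, 83.9 and 97.6 CPM (log2 fold-change -0.82, SE 0.05, edgeR adjusted p = 3.39e-05) and the fibrillar *COL5A1* from 79.02, 77.1 and 73.1 CPM to 44.6, 41.8 and 41.5 CPM (log2 fold-change -0.84, SE 0.05, edgeR adjusted p = 3.39e-05), each without overlap. Among 25 other matrix genes, 6 were lower and 0 higher. They were tenascin C (*TNC*, -1.10), the basement membrane proteoglycan perlecan (*HSPG2*, -1.04), fibronectin (*FN1*, -0.80), fibrillin (*FBN1*, -0.73), the collagen cross-linker *LOX* (-0.64) and nidogen (*NID1*, -0.61). *HSPG2* stood at 219.8, 251 and 226 CPM and 108, 125 and 106 CPM, *TNC* at 32.4, 29.2 and 24.7 CPM and 14.05, 13.2 and 12.8 CPM, with the groups apart for both. Of 22 genes of adhesion and actin, 8 were lower, with a median of -0.49. The focal adhesion protein tensin (*TNS1*) went from 20.3, 18.6 and 17.5 CPM to 7.59, 8.33 and 7.72 CPM (log2 fold-change -1.25, SE 0.09, edgeR adjusted p = 6.26e-05), and vinculin (*VCL*), actinin (*ACTN4*), *DIAPH2*, *ARHGAP24*, *PLEKHA2* and *TBC1D2* had log2 fold-changes between -0.83 and -0.60. Of 25 genes of the YAP and TAZ list, 6 were lower, among them the YAP-binding *AMOT*, from 67.6, 70.3 and 74.2 CPM to 33.5, 35.2 and 31.4 CPM (log2 fold-change -1.08, SE 0.06, edgeR adjusted p = 2.91e-05), the kinase *NUAK2* (-0.95) and tissue factor, *F3* (-0.68). With a trend in exon length removed, as described with the length classes, the calls of 11 of these matrix, adhesion and basal genes were lost. The log2 fold-changes then were -0.51 for *DST*, -0.54 for *LAMA3*, -0.52 for *FN1*, -0.47 for *FBN1*, -0.46 for *COL12A1*, -0.54 for *VCL* and -0.53 for *ARHGAP24*. They were -0.59 for *NID1*, -0.58 for *ACTN4*, -0.56 for *PLEKHA2* and -0.98 for *COL2A1*. Without experiment 3, *NID1* (-0.57), *ACTN4* (-0.54), *TBC1D2* (-0.60) and *COL2A1* (-0.74) were not called. *COL18A1* overlaps *SLC19A1* on the other strand.

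A few genes of glucose use, hypoxia and the clock changed. Of 23 genes of glucose uptake and glycolysis, 5 were lower, just past the size threshold, and none higher (*SLC2A1* -0.68, *HK2* -0.63, *PFKM* -0.60, *ALDOA* -0.62 and *ALDOC* -0.66), and 1 of them, *HK2*, was called without experiment 3, where the other 4 stood between -0.56 and -0.46. With exon length adjusted 2 were called, and *HK2*, *PFKM* and *ALDOA* stood at -0.59, -0.53 and -0.58. The glucose transporter *SLC2A1* was at 223, 221 and 258 CPM in controls and 156, 149 and 132 CPM in treated cells, with no overlap. *ADM* (ENSG00000148926.9, chromosome 11 from 10304680 to 10307397), the vasoactive peptide adrenomedullin and a target of hypoxia-inducible factor, fell in every experiment from 37.7, 33.5 and 45.1 CPM to 10.2, 9.66 and 9.76 CPM (log2 fold-change -1.96, SE 0.09, edgeR adjusted p = 1.40e-05). Of the other 21 genes of the hypoxia list, *BHLHE40* was lower (-0.69) and *STC2* higher (0.64), and *VEGFA*, *CA9* and *NDRG1* were not called, at 0.37, 0.12 and -0.13. Over all tested genes 3.13% were higher and 4.02% lower, so 1 call each way among 21 was near that share. The median of the hypoxia list was -0.04. Without experiment 3 it held 0 higher and 4 lower genes, which were *ADM* (-1.84), *BHLHE40* (-0.65), *CA12* (-0.82) and *STC1* (-0.84), with *STC2* at 0.45. *GPNMB* (ENSG00000136235.15, chromosome 7 from 23235967 to 23275108), a lysosomal glycoprotein, fell from 59.8, 55.9 and 74.4 CPM to 18.4, 19.2 and 16.1 CPM (log2 fold-change -1.81, SE 0.11, edgeR adjusted p = 3.15e-05), while the other 25 lysosome and autophagy genes held 1 higher (*MAP1LC3B*, 0.80) and 1 lower (*WIPI1*, -0.61, not called without experiment 3 at -0.46). Calls among these 25 genes were also near the shares over all tested genes. Of 18 clock genes, 3 were lower. *NR1D1*, the repressor REV-ERBα, went from 24.1, 23.9 and 25.3 CPM to 15.1, 12.1 and 8.16 CPM (log2 fold-change -1.08, SE 0.15, edgeR adjusted p = 8.03e-04), and *DBP* and *BHLHE40* had log2 fold-changes of -0.73 and -0.69. *NR1D1* overlaps *THRA* on the other strand, and the hour of collection is not given in the sources used here.

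Genes of lipid synthesis fell in part. Of 28 genes of sterol and fatty acid synthesis, 9 were lower and 0 higher, with a median log2 fold-change of -0.45, and 5 were called without experiment 3. The acetyl-CoA carboxylase *ACACA* went from 45.04, 49.6 and 44.7 CPM to 22.6, 23.5 and 27.6 CPM (log2 fold-change -0.92, SE 0.08, edgeR adjusted p = 1.16e-04), and fatty acid synthase, *FASN*, from 441, 441 and 450.1 CPM to 288, 286 and 211 CPM (log2 fold-change -0.78, SE 0.09, edgeR adjusted p = 3.01e-04). Every treated library lay below every control for both, and in experiment 3 *ACACA* fell least and *FASN* most. The desaturase *SCD*, *CYP51A1*, *INSIG1*, *HMGCS1* and *MSMO1*, which act in fatty acid and sterol synthesis or its control, had log2 fold-changes between -0.71 and -0.62. Of 11 genes of glutamine and branched-chain amino acid use, 3 were lower, glutamine synthetase *GLUL* (364, 362 and 382 CPM in controls and 228, 216 and 184 CPM in treated cells, log2 fold-change -0.82), *ALDH6A1* (-0.68) and *BCKDHA* (-0.95).

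Histone, interferon and chaperone lists held falls only. Of 70 histone genes, 23 were tested and 6 were lower, with a median of -0.45. *H2BC21* went from 10.4, 9.07 and 12.6 CPM to 4.003, 4.38 and 3.68 CPM (log2 fold-change -1.40, SE 0.15, edgeR adjusted p = 2.47e-04) and the linker histone *H1-2* from 10.3, 9.83 and 12.2 CPM to 3.97, 4.999 and 4.18 CPM (log2 fold-change -1.29, SE 0.13, edgeR adjusted p = 2.32e-04). Histone genes are close copies and most of their messages lack a poly-A tail, so poly-A selected libraries hold a fraction of them. Of 30 interferon-stimulated genes, 4 were lower (*IFI44L* -0.82, *OAS2* -0.76, *XAF1* -0.67 and *IFI27* -0.61), of which 1, *IFI44L*, was called without the replicate block. Of 19 heat shock and unfolded protein genes, 3 were lower. The endoplasmic reticulum chaperones *HSPA5*, at 2269.9, 2202 and 2322 CPM and 1739, 1715 and 952 CPM, and *CALR*, at 1115, 1061 and 1231 CPM and 904, 854 and 519.6 CPM, were lowest in treated experiment 3 and were not called without it, while the small heat shock protein *HSPB1* (-0.72) was. The log2 fold-changes were -0.67 and -0.62. Among 9 enzymes of DNA methylation, the demethylase *TET1* was lower, from 6.39, 8.42 and 8.72 CPM to 4.11, 5.09 and 5.88 CPM (log2 fold-change -0.64, SE 0.12, edgeR adjusted p = 0.00289), which was not called with exon length adjusted (-0.52), where the median of the list went from -0.08 to 0.08. The genes *DNMT1*, *DNMT3A*, *DNMT3B*, *TET2* and *TET3* stood at log2 fold-changes of -0.04, -0.31, -0.08, -0.42 and -0.12.

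Other stress and growth lists held few calls. None of 22 p53 targets was called (*CDKN1A* 0.00334, *MDM2* -0.28), none of 20 genes of G2/M and mitosis (median -0.21, *MKI67* -0.49), none of 7 metallothioneins and none of 13 mitochondrially encoded genes by edgeR. DESeq2 also called 0 in each of these lists, while an unadjusted p under 0.05 by edgeR was met by 11, 14, 4 and 9 of their genes in that order. Over all tested genes 46.3% met it, so such counts are common here. Among edgeR's alternatives, 1 metallothionein was lower without experiment 3, with exon length adjusted and with no filter, and 2 mitochondrially encoded genes were lower with exon length adjusted. Of 18 replication genes, *CCNE1* was higher (0.63). Of 32 genes of the NRF2 response to oxidants, 0 were higher and 1 lower, the transketolase *TKT* (-0.76), with *HMOX1*, *NQO1*, *GCLM* and *TXNRD1* at 0.18, 0.14, 0.08 and 0.09. Over all tested genes 3.13% were higher and 4.02% lower, so 0 or 1 call in lists of this size is near that share. Without experiment 3 *TKT* was not called (-0.51), and *OSGIN1* was higher (0.89) and *AKR1B10* lower (-0.65). With no filter on low counts 1 gene was higher and 1 lower.

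**Figure D3:**
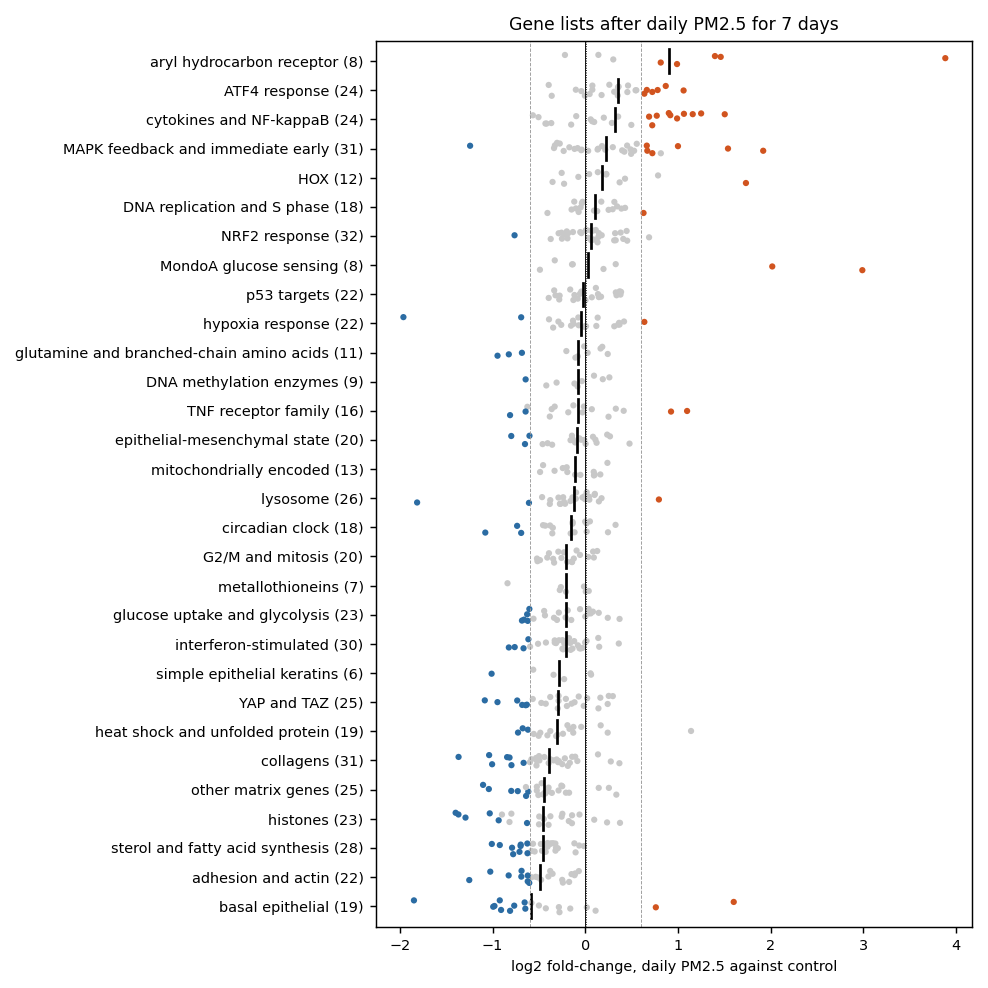
Log2 fold-change of every tested member of 30 gene lists after daily PM2.5, with the number tested in parentheses. Orange and blue points passed both thresholds, gray points did not, black bars are list medians, dashed lines mark ±0.6 and the dotted line the median of all genes. The AhR list has the highest median, 0.90, and the basal list the lowest, -0.58.

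The largest falls by the naming rule were in *INO80D*, *ZBTB20*, *FYB1*, *MUC16*, *IL2RB*, *KANK4*, *LCMT1-AS2*, the pseudogenes *RPL29P11* and *BMPR1AP1* and 3 unnamed genes. All but *ZBTB20* and *MUC16* among the named genes had control means below 2 CPM. For these and the unnamed genes, the treated libraries alone did not pass the low-count filter. The controls thus decided that they were tested, so their direction is in part set by the filter. The repressor *ZBTB20* was at 5.31, 8.35 and 11.6 CPM in controls and 0.759, 1.54 and 1.91 CPM in treated cells (log2 fold-change -2.59, SE 0.15, edgeR adjusted p = 2.66e-05), and the membrane mucin *MUC16* at 16.6, 27.7 and 39.6 CPM and 4.38, 4.75 and 6.29 CPM (log2 fold-change -2.41, SE 0.13, edgeR adjusted p = 2.17e-05). Control levels of both varied between experiments, and every treated library lay below every control. *INO80D*, of a chromatin remodeling complex, was at 0.684, 1.45 and 1.26 CPM and 0, 0.185 and 0.167 CPM, a log2 fold-change of -3.23 (SE 0.46) that rests on 0 to 6 counts in the treated libraries. Of the remaining rises by the rule, the lncRNA ENSG00000251556 held no more than 3 counts in each control and was at least 3.81-fold higher. The treated libraries decided that this lncRNA was tested. It overlaps *LARS1* on the other strand, so its values may hold reads of that gene.

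Noncoding and coding genes moved in different proportions. Of 1988 tested lncRNAs, 171 were higher (8.60%) and 67 lower (3.37%), with a median log2 fold-change of 0.18, against 286 higher (2.14%) and 522 lower (3.90%) of 13382 protein-coding genes with a median of -0.01. *LINC00886* went from 2.69, 2.69 and 2.26 CPM to 6.63, 6.20 and 6.49 CPM (log2 fold-change 1.34, SE 0.14, edgeR adjusted p = 2.47e-04), and the antisense genes *DLG1-AS1* (1.75) and *TMEM147-AS1* (0.79) were also higher, though reads of their sense partners cannot be told apart without the strand. For *DLG1-AS1* the controls alone did not pass the low-count filter, so the treated libraries decided that it was tested. The change also followed gene length, taken as the summed length of a gene's exons and split into 5 classes of nearly equal gene number. Over 12365 protein-coding genes at a mean of 1 CPM or more, the Spearman correlation of log2 fold-change with exon length was -0.375 across genes, which are not independent replicates and share their libraries. It was -0.399, -0.398 and -0.253 in experiments 1, 2 and 3. The shortest class (207 to 3024 bases) had a median of 0.14 with 123 genes higher and 62 lower, and the longest class (8323 to 118976 bases) a median of -0.18 with 11 higher and 211 lower. For 24-h exposure the correlations were 0.00169 at 1 µg/cm2 and 0.0929 at 30 µg/cm2. With this trend removed from each library, an alternative added after it was seen, 373 genes were higher and 613 lower, 802 of the 1181 were called again, and the AhR list kept its 5 calls. The adhesion list then held 4 of its 8 falls, the other matrix list 3 of 6 and the basal list 7 of 9, and *TXNIP*, *KRT5*, *ADM* and *MUC16* had log2 fold-changes of 2.93, -0.95, -2.07 and -1.93. The part of RNA quality or library preparation in the trend was not tested.

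**Figure D4:**
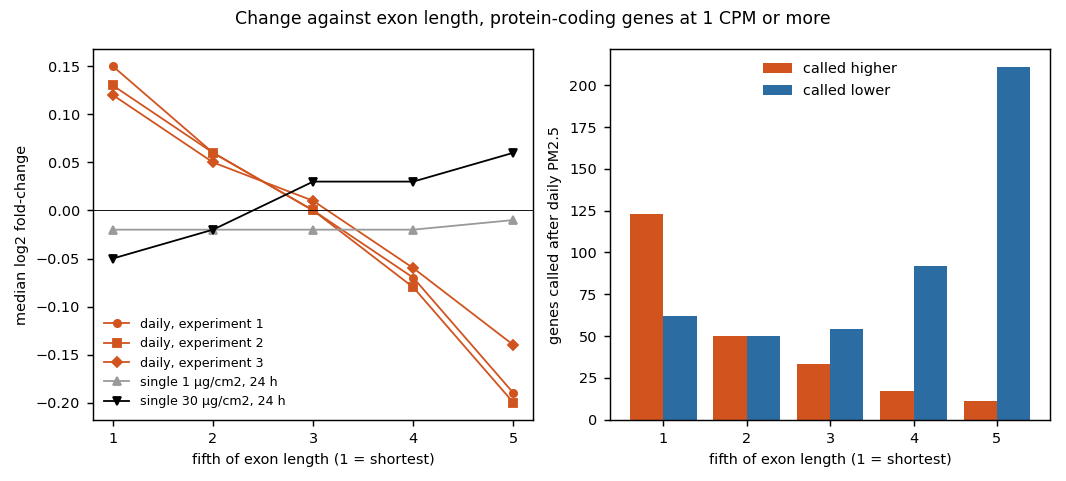
Left, median log2 fold-change of protein-coding genes at a mean of 1 CPM or more in 5 classes of exon length, for each daily experiment and for the single exposures at 24 h. Right, number of genes in each class called higher or lower after daily PM2.5. The medians of all 3 daily experiments fall from the shortest to the longest class, and those of the single 1 µg/cm2 exposure stay between -0.02 and -0.01.

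The response to daily exposure was set against that to 1 µg/cm2 given once for 24 h, in a fit of all 15 libraries with a replicate block for each protocol. That fit called 773 of 17599 genes after daily exposure (4.39%) and 74 after the single exposure (0.42%). The 19 genes called in both, 2.46% of the first and 25.7% of the second, all changed in the same direction. The test of the difference between both responses called 181 genes (1.03%), 61 with a higher and 120 with a lower value after daily exposure, and 108 of these were among the 1181. None of the AhR genes passed both thresholds. In this fit *CYP1A1* changed by 6.85 on the log2 scale after the single and by 3.90 after the daily exposure, a difference of -2.95 with an edgeR adjusted p of 0.0786. For *CYP1B1* and *AHRR* the differences were -0.58 and -1.02, with edgeR adjusted p of 0.118 and 0.0584. *TXNIP* (2.72), *IL6* (2.54), *JUN* (1.69) and *TNFRSF12A* (1.20) had a more positive response after daily exposure, and *ADM* (-1.88), *GPNMB* (-1.93), *KRT15* (-2.23), *TP63* (-0.94), *MUC16* (-2.92) and *ZBTB20* (-3.56) a more negative one. Without the replicate block no gene passed by edgeR (1245 at an unadjusted p under 0.05), and without experiment 2 of the 24-h protocol 2213 did. That experiment stood apart in its controls, where *CHAC1* was at 5.03, 108 and 6.16 CPM in the 24-h experiments 1, 2 and 3.

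Levels in the 24-h libraries are given beside several of these changes. On CPM scaled over all 15 libraries, *TXNIP* stood at 117, 123 and 123 CPM in the 24-h controls and at 124, 174 and 137 CPM after 1 µg/cm2 for 24 h. In the 7-day controls it stood at 25.7, 24.8 and 13.96 CPM and after daily PM2.5 at 119, 114 and 355 CPM. The 7-day controls were thus the low group, and treated experiments 1 and 2 lay near the 24-h controls. *ADM* was at 10.2, 10.5 and 10.8 CPM in 24-h controls, 35.6, 31.2 and 42.6 CPM in 7-day controls and 9.62, 9.04 and 9.11 CPM after daily PM2.5. For *TP63* the same groups stood at 27.9, 23.8 and 25.1 CPM, 56.6, 55.6 and 65.4 CPM and 28.97, 31.1 and 29.5 CPM, and for *KRT15* at 2.47, 8.43 and 2.41 CPM, 33.6, 29.95 and 60.5 CPM and 10.4, 10.3 and 12.4 CPM. In all 3 genes the 7-day controls were the high group. Daily-treated cells lay between the 24-h and 7-day controls for *TP63* and *KRT15* and just below the 24-h controls for *ADM*. *CYP1A1* differed, with 1.29, 0.565 and 1.45 CPM, 2.89, 2.76 and 0.941 CPM and 32.2, 30.5 and 32.1 CPM, so the daily-treated level exceeded both control groups. The protocols were separate experiments that share no library, so time in culture and the run cannot be told apart in these levels, and no test was made of them.

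**Figure D5:**
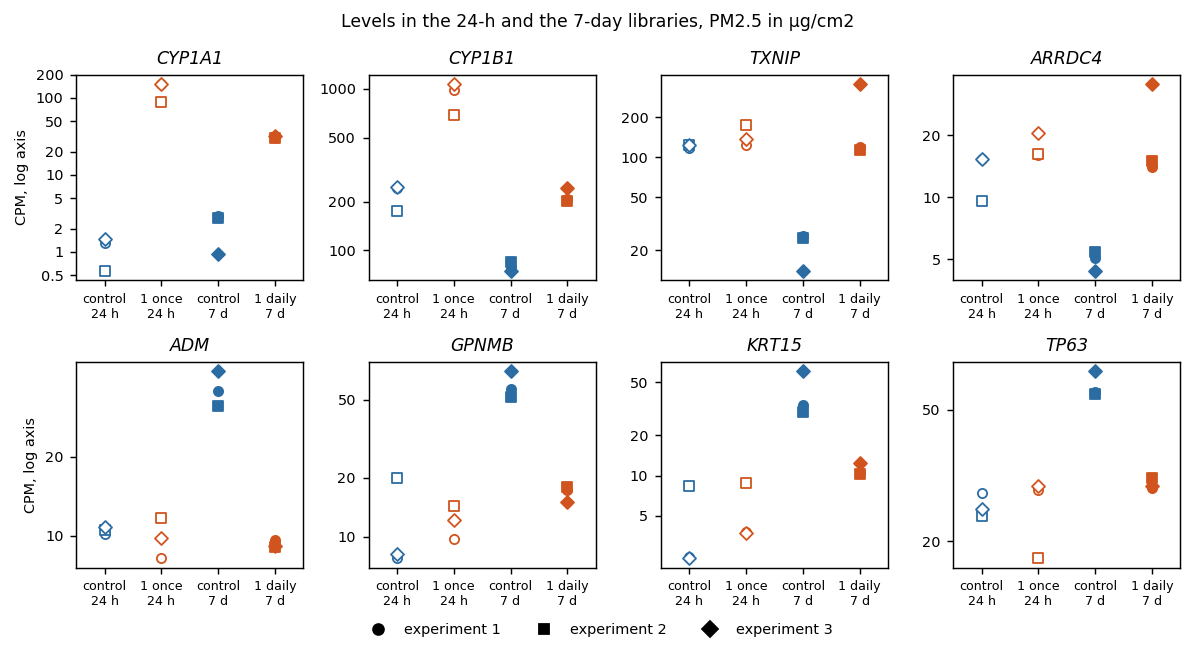
Levels of 8 genes in 12 libraries of the 24-h (open symbols) and the 7-day protocol (filled symbols), as CPM scaled over all 15 libraries on a log axis. Blue marks controls, orange 1 µg/cm2 of PM2.5 given once or daily, and the symbol the experiment of that protocol. For TXNIP and ARRDC4 the 7-day controls are the lowest group, and for ADM, GPNMB, KRT15 and TP63 the highest.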

How the data were processed

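The authors deposited one table of raw counts per gene for 15 libraries, of which 6 are compared here. Per the labels and methods, poly-A selected RNA was sequenced in short single-end reads, aligned with STAR to GRCh38 and counted with featureCounts. The submitters' processing notes name hg19, but the coordinates in the table are those of GRCh38, since 99.96% of 57392 gene spans overlapped the same gene in GENCODE for that build. The annotation release, counting strand and options are not given in the sources used here. Replicate numbers name the experimental batch in the series record, and the number was set as a block in the plan. Deviations from group means correlated at 0.226, 0.151 and 0.204 between libraries of the same number and at -0.168 to -0.0489 otherwise. Such deviations cancel out within a group, so positive values for the same number bring negative ones elsewhere.

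Counts were filtered with filterByExpr, scaled by TMM and fitted with the quasi-likelihood test of edgeR 4.0.16 in R 4.3.3, in its earlier mode, with the thresholds of the study's methods. SEs were taken as log2 fold-change over the root of F. With 3 experiments, 2 residual degrees of freedom and a prior of 7.19 degrees support each gene. Scripts had been tested on simulated data in which the changes were known. Alternatives covered the block, RLE scaling, filters, edgeR's current and robust modes, DESeq2 1.42.0, all 15 libraries, adjusted p alone, each experiment left out as a pair and, added after seeing the data, an adjustment for exon length. Fold-changes against a group with at most 3 counts per library are lower bounds against that floor.

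The comparison and the gene lists were chosen with earlier results of these data and the paper known. Named genes are the 12 largest rises and falls that changed alike in all 3 experiments with at least 10 counts in every library of 1 group, the called members of 30 gene lists and 6 cell marker lists, all tested AhR, MondoA and DNA methylation genes, and genes that the study names for repeated exposure. SPRR, S100A, keratin and SERPINB families and a few single genes were added after their values were seen. A few genes counted in the lists are not reported here by name.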

Additional observations from a re-analysis of the deposited data

Results flagged for a closer look

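The response to daily PM2.5 for 7 days and that to a single 1 µg/cm2 for 24 h differed in 181 of 17599 genes by edgeR's test of the difference with a replicate block, at an adjusted p-value under 0.05 and a log2 difference of at least 0.6. Without the block 0 genes passed, and without 24-h experiment 2, 2213 did. All differences below are daily minus single log2 fold-change, and the number of libraries is 3 in each of the 4 groups.

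More positive after daily exposure were *TXNIP* (2.72), *IL6* (2.54), *JUN* (1.69), *KCNAB3* (1.45), *TNFRSF12A* (1.20), *RPS6KL1* (0.882) and *CSTF3* (0.725). In the fit of 15 libraries behind this test *IL6* had a log2 fold-change of -1.30 after the single exposure (edgeR adjusted p = 0.232) and of 1.24 after the daily exposure (edgeR adjusted p = 0.0557), so neither response alone was called there. It had 13 to 39 counts per library in the 7-day protocol.

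More negative were the basal and keratin genes *KRT15* (-2.23), *NGFR* (-1.62), *KRT19* (-1.19), *TP63* (-0.938) and *LAMA3* (-0.765), and the matrix, adhesion and trafficking genes *TNS1* (-1.26), *COL18A1* (-1.12) and *DIAPH2* (-0.723). Among genes of metabolism, clock and stress, *GPNMB* (-1.93), *ADM* (-1.88), *NR1D1* (-1.18), *TKT* (-1.12), *ALDH6A1* (-0.900), *DBP* (-0.835), *BHLHE40* (-0.763), *SLC2A1* (-0.742) and *HSPB1* (-0.722) passed. The histone genes *H2BC11* (-1.81) and *H1-2* (-1.44) and the large falls *ZBTB20* (-3.56), *MUC16* (-2.92) and *FYB1* (-6.88) passed too. The 24-h controls of *FYB1* held at most 1 count each, so the size of its difference depends on the prior count and is no measure of fold.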

How the results depend on the processing

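Every one of the 1181 calls kept its direction in the alternatives run on genes that were tested there. The 1181 calls (517 higher, 664 lower) became 718 with DESeq2 and the replicate block (229 higher), 773 in the fit of all 15 libraries with the block (282 higher), 40 in that fit with no replicate block (18 higher, 22 lower) and 6045 with the adjusted p-value alone (2882 higher, 3163 lower). Of the 40, all 40 were among the 1181. With no replicate block in the 6 libraries 1029 genes were called, 1013 of them shared. The other settings, which were RLE scaling, no filter, a filter at 1 CPM, edgeR's current and robust modes and the exon-length adjustment with the block, gave 964 to 1412. Leaving out an experiment gave 1148 to 1323 in all, 456 to 570 higher and 692 to 753 lower. Among the 166 named genes, calls were lost for 37 without experiment 3, 30 with DESeq2, 27 with the length adjustment, and 25 in the 15-library fit with the block and 116 without it. The difference between daily and single response, 181 genes, became 0 with no replicate block and 2213 without 24-h experiment 2. The cause of these moves was not tested. The 6 libraries leave 2 residual degrees of freedom for each gene. Genes at 0 in a library cannot be placed below its floor.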

Other observations

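Several further changes of more than 2-fold fell outside the lists and were chosen after their values were seen. *FBXO32*, an ubiquitin ligase of muscle wasting, went from 40.7, 38.2 and 49.6 CPM in controls to 14.05, 14.4 and 9.70 CPM after daily PM2.5 (log2 fold-change -1.75, SE 0.15, edgeR adjusted p = 1.19e-04), with every treated library below every control. The NF-kappaB subunit *REL* went from 15.9, 19.7 and 24.9 CPM to 5.004, 6.82 and 9.90 CPM (log2 fold-change -1.50, SE 0.10, edgeR adjusted p = 4.03e-05), in the opposite direction to the cytokines. The epithelial chemokine *CXCL14* went from 4.22, 3.93 and 6.09 CPM to 1.10, 0.988 and 3.71 CPM (log2 fold-change -1.41, SE 0.25, edgeR adjusted p = 0.00280), and *DPP4*, a protease that trims chemokines, from 2.53, 2.10 and 2.93 CPM to 0.828, 1.27 and 1.07 CPM (log2 fold-change -1.24, SE 0.24, edgeR adjusted p = 0.00360). Among rises, *LCN2*, a siderophore-binding protein of inflamed epithelium, went from 18.7, 19.5 and 15.7 CPM to 54.3, 51.9 and 28.2 CPM (log2 fold-change 1.28, SE 0.12, edgeR adjusted p = 1.37e-04), *G0S2*, an inhibitor of lipolysis, from 1.05, 0.862 and 0.798 CPM to 2.04, 1.98 and 3.98 CPM (log2 fold-change 1.53, SE 0.28, edgeR adjusted p = 0.00319) and the hormone *FGF21* from 2.33, 2.31 and 1.996 CPM to 4.97, 5.06 and 7.69 CPM (log2 fold-change 1.40, SE 0.19, edgeR adjusted p = 7.54e-04). *CREB5*, a partner of JUN, went from 0.844, 0.586 and 0.499 CPM to 2.14, 1.17 and 2.71 CPM (log2 fold-change 1.62, SE 0.30, edgeR adjusted p = 0.00345). Involucrin (*IVL*), *KRTDAP* and *SBSN*, of the cornified layer, had log2 fold-changes of 1.71, 3.35 and 1.67. For *KRTDAP* the treated library of experiment 3 stood at 301 counts and the other treated libraries at 11 and 8, against 4, 7 and 13 in the controls. The size of its change thus came from experiment 3, and the other treated libraries lay within the range of the controls.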
